A study of Mus musculus with 6 samples.

Results

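The 9 genes described here, Sphkap, Wscd2, Zfp365, Fam19a1 (Tafa1 in newer annotation), Kcnmb3, Ankrd63, Sgpp2, Lgi2 and Ppp2r2c, encode proteins that are not chemoreceptors and were chosen by their lower expression in the Cnpy1 knockout in an earlier gene-level analysis of these libraries. They are 9 of 35450 genes quantified and of 16679 genes tested in the vomeronasal organ. The selection used the difference between the genotypes, so that difference is given below as a description, without a test of the 9 genes. In the fit across all tested genes, 52 genes without a vomeronasal or olfactory receptor name were called lower in the knockout, and the 9 belong to them. A gene is said to be called where edgeR's Benjamini-Hochberg adjusted p over all tested genes was under 0.05. All 9 passed the filter on low counts, and each had at least 497 estimated reads in each of the 6 libraries.

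Poly(A) RNA was sequenced from 3 wild-type mice (Cnpy1+/+) and 3 knockout littermates (Cnpy1-/-), all 60 days old. Each genotype had 2 males, numbered 1 and 3 in the wild type and 1 and 2 in the knockout, and 1 female, wild type 2 and knockout 3. One directional library was made from the pair of organs of each mouse, and no other allele or treatment is named in the labels. The labels call the allele a knockout and name no driver line.

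The vomeronasal organ is a chemosensory organ of the nose that detects pheromones and other social signals. Its basal sensory neurons express the G protein subunit gene Gnao1 and V2R receptors, and its apical neurons express Gnai2 and V1R receptors. Both kinds depolarise mainly through the channel Trpc2, and calcium that enters then acts on chloride and potassium channels. Cnpy1 encodes a Canopy family protein of the endoplasmic reticulum, a family known for work with receptors in the secretory pathway. The 9 genes act at different places in a neuron. Fam19a1 and Lgi2 encode secreted proteins, Kcnmb3 an ion channel subunit, Sphkap and Ppp2r2c partners of a kinase and a phosphatase, and Sgpp2 an enzyme of sphingolipid breakdown. Wscd2 encodes a membrane protein with a WSC domain, Zfp365 a partner of DISC1, and Ankrd63 an ankyrin repeat protein whose function is little known.

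Some of the 5′ flanking sequences are printed because they hold a match to a motif of a transcription factor family that works in vomeronasal neurons. Their annotated starts in GENCODE lie within 3 bases of those in RefSeq. The sequences come from RefSeq's annotation of GRCm38.p6, and each is the 250 bases before the gene's start, read 5′ to 3′ on the gene's strand. Capitals mark matches, on either strand, to GCCNNNGGC, the AP-2 motif, or to CCCNNGGG, the EBF motif. The Ankrd63 sequence lies at chr2:118703964-118704213 on the minus strand and holds both motifs. The Ppp2r2c sequence lies at chr5:36868260-36868509 on the plus strand and holds the AP-2 motif. The Zfp365 sequence lies at chr10:67912663-67912912 on the minus strand and holds the EBF motif.
Ankrd63: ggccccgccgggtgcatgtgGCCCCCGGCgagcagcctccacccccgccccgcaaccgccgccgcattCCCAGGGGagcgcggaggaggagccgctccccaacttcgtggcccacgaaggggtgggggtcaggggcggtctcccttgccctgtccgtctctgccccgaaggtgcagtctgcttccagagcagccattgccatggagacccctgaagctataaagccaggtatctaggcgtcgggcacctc
Ppp2r2c: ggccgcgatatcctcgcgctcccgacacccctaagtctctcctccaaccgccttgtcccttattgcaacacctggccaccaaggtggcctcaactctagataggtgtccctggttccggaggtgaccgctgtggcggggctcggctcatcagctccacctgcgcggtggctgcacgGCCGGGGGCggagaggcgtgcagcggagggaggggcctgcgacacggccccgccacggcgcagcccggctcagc
Zfp365: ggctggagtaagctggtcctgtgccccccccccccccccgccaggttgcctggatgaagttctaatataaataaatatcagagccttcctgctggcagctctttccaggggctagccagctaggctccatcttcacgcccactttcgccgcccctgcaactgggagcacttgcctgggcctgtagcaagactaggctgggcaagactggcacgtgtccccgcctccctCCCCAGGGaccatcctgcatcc
Of the 9 genes, 8 had a sequence in the RefSeq table, and Wscd2 did not. For Lgi2 and Kcnmb3 the GENCODE start lies 156 and 262 bases upstream of the RefSeq start, so the part of their windows next to the RefSeq start, and all of that of Kcnmb3, is inside the gene by the GENCODE coordinates given below. This holds for the AP-2 match of Lgi2, 1 of its EBF matches and the RBPJ match of Kcnmb3. The AP-2 motif was present in 3 of the 8 (Ankrd63, Lgi2 and Ppp2r2c) and in 13.7% of 32851 gene starts with the same window. The EBF motif was present in 3 of the 8 (Zfp365, Ankrd63 and Lgi2) and in 11.8% of all. TGACG, the core of the cAMP response element, was found for Sgpp2, against 17.8% of all windows. TGGGAA, the RBPJ motif, was found for Kcnmb3 and Ankrd63, against 21.6% of all, and the homeodomain motif TAATTA for none of the 8, against 4.84%. The windows of the 8 genes had a median GC content of 65.6%, from 40.8% for Fam19a1 to 72.4% for Lgi2, where all windows had a median of 52.4%. Motifs made mostly of G and C match more often in such windows by base composition. A match is a description of the letters and no evidence of binding.

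Cnpy1 itself, which checks the genotype labels, stood at 303 ± 22.5 CPM in wild-type mice and at 73.7 ± 5.67 CPM in knockout mice (SD, n = 3 each), with no overlap between the groups. CPM are reads of a gene relative to all reads in genes, scaled between libraries by edgeR's TMM factors. The libraries held 60969508 to 71670766 estimated reads. Knockout 3, the knockout female, stood apart in listed markers of main olfactory neurons, at 144 CPM in sum against 197 to 228 CPM in the other libraries. Without it, 7 of the 9 genes were called lower and their median log2 fold change was -0.69. In all, 127 genes were called between the genotypes, 114 of them lower in the knockout. That is 0.683% of tested genes called lower and 0.761% called in either direction. Nothing is read from the 9 of 9 genes called lower, since they were selected for it. Their median log2 fold change, knockout against wild type, was -0.66, with a range of -0.79 to -0.32, beside a median of 0.01 over all tested genes. Every knockout library lay below every wild-type library for each of the 9 in CPM, as for 8.95% of tested genes, and likewise in TPM. In whole tissue, fewer cells of a type and less RNA per cell cannot be told apart.

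**Figure D1:**
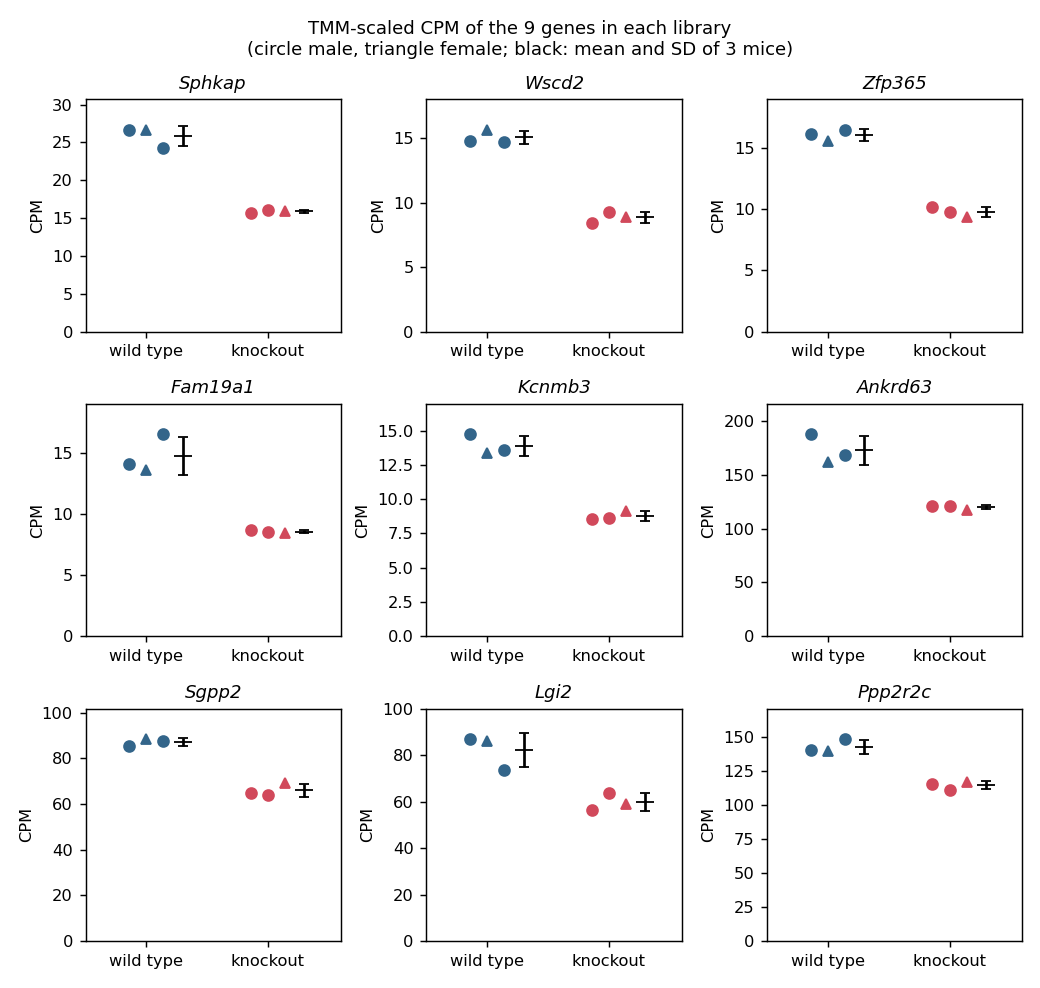
TMM-scaled CPM of the 9 genes in each library, with wild type in blue and knockout in red, males as circles and females as triangles. Black marks give the mean and SD of 3 mice. In all 9 panels the 3 knockout mice lie below the 3 wild-type mice.

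Among the genes for secreted proteins, Fam19a1 (ENSMUSG00000059187.12, chromosome 6, 96113154 to 96657198, plus strand, GRCm38) encodes a small chemokine-like protein of the TAFA family, whose members are known as ligands of neurexins. It had 14.1, 13.6 and 16.5 CPM in wild types 1 to 3 and 8.72, 8.51 and 8.45 CPM in knockouts 1 to 3. The wild-type mean was 14.8 ± 1.55 and the knockout mean 8.56 ± 0.141 CPM (SD, n = 3 each), so the log2 fold change came to -0.79 (SE 0.09). Wild type 3 was the highest library, and the knockouts were close together. This was the lowest log2 fold change of the 9 genes, with the knockout at 58.0% of the wild type.

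Lgi2 (ENSMUSG00000039252.11, chromosome 5, 52533517 to 52566462, minus strand) encodes a secreted leucine-rich repeat protein of the LGI family, which binds the ADAM22 and ADAM23 receptors at synapses. Its levels were 87.1, 86.3 and 73.9 CPM in the wild types and 56.2, 64.0 and 59.0 CPM in the knockouts. Wild type 3 stood below the other two wild types but above all knockouts. The means were 82.4 ± 7.41 and 59.7 ± 3.91 CPM (SD, n = 3 each), the log2 fold change was -0.46 (SE 0.08), and the knockout was at 72.5% of the wild type.

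Kcnmb3 (ENSMUSG00000091091.2, chromosome 3, 32471588 to 32492231, minus strand) encodes an auxiliary beta subunit of BK channels, the large-conductance potassium channels opened by calcium and voltage. Wild types had 14.7, 13.4 and 13.6 CPM and knockouts 8.57, 8.60 and 9.17 CPM. The means were 13.9 ± 0.722 and 8.78 ± 0.336 CPM (SD, n = 3 each), with a log2 fold change of -0.66 (SE 0.08). The highest knockout, the female, was well below the lowest wild type, also the female.

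Sphkap (ENSMUSG00000026163.17, chromosome 1, 83254139 to 83408200, minus strand) encodes an anchoring protein for type I protein kinase A, which in neurons sits at junctions of the endoplasmic reticulum with the plasma membrane. Its levels were 26.6, 26.7 and 24.3 CPM in the wild types and 15.7, 16.1 and 15.95 CPM in the knockouts. The means were 25.9 ± 1.35 and 15.9 ± 0.182 CPM (SD, n = 3 each), with a log2 fold change of -0.70 (SE 0.06). The knockouts, at 61.6% of the wild-type mean, differed little among themselves.

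Ppp2r2c (ENSMUSG00000029120.10, chromosome 5, 36868513 to 36955078, plus strand) encodes a B55-type regulatory subunit of protein phosphatase 2A that is known from brain. Wild types had 140.6, 139.6 and 149 CPM, and knockouts 116, 111 and 117 CPM. This was the log2 fold change nearest to 0 of the 9, at -0.32 (SE 0.05), with means of 143 ± 5.04 and 115 ± 2.91 CPM (SD, n = 3 each). The groups did not overlap, and the knockout was at 80.1% of the wild type.

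Sgpp2 (ENSMUSG00000032908.9, chromosome 1, 78310345 to 78420289, plus strand) encodes a phosphatase of the endoplasmic reticulum that converts sphingosine-1-phosphate to sphingosine. Its levels were 85.3, 88.5 and 87.5 CPM in the wild types and 64.8, 63.8 and 69.0 CPM in the knockouts. The means were 87.1 ± 1.63 and 65.9 ± 2.74 CPM (SD, n = 3 each), with a log2 fold change of -0.40 (SE 0.05). The wild types lay close together, and the female knockout was the highest of the knockouts. Sgpp2 overlaps Farsb on the opposite strand, with which it shares 5.54% of its 31-base words, and 92.9% of its words occur in no other gene quantified. Farsb, a subunit of a transfer RNA charging enzyme, had a log2 fold change of -0.04 (SE 0.04). Of the words of the other 8 genes, 99.6% to 100% were found in no other gene.

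Wscd2 (ENSMUSG00000063430.9, chromosome 5, 113490333 to 113589725, plus strand) had 14.8, 15.6 and 14.7 CPM in the wild types and 8.44, 9.27 and 8.90 CPM in the knockouts. The means were 15.04 ± 0.52 and 8.87 ± 0.416 CPM (SD, n = 3 each), with a log2 fold change of -0.76 (SE 0.07) and the knockout at 59.0% of the wild type. Each genotype varied by less than the gap between them.

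Zfp365 (ENSMUSG00000037855.15, chromosome 10, 67886103 to 67912662, minus strand) encodes a zinc finger protein found at the centrosome and known as a DISC1 partner in neurite growth. Its levels were 16.1, 15.5 and 16.5 CPM in the wild types and 10.2, 9.76 and 9.33 CPM in the knockouts. The means were 16.03 ± 0.471 and 9.76 ± 0.423 CPM (SD, n = 3 each), with a log2 fold change of -0.72 (SE 0.07). In both genotypes the female was the lowest library.

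Ankrd63 (ENSMUSG00000078137.1, chromosome 2, 118699103 to 118703963, minus strand) is annotated with 1 exon. The wild types had 187, 162 and 168 CPM and the knockouts 121, 121 and 118 CPM. The means were 173 ± 13.2 and 119.7 ± 1.86 CPM (SD, n = 3 each), with a log2 fold change of -0.53 (SE 0.07). The wild types spread more widely than the knockouts, and the knockout was at 69.3% of the wild type.

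Levels of different genes were compared in TPM, an abundance that takes transcript length into account. In the wild type, Ankrd63 at 48.2 ± 1.35 and Ppp2r2c at 48.1 ± 4.44 TPM (SD, n = 3 each) were the highest, and their ranges overlapped. Sgpp2 followed at 30.0 ± 2.54, Lgi2 at 17.7 ± 1.28, Kcnmb3 at 12.01 ± 0.279 and Fam19a1 at 6.72 ± 0.944 TPM (SD, n = 3 each), each with a range apart from the next. Wscd2 at 5.46 ± 0.502, Sphkap at 5.31 ± 0.245 and Zfp365 at 5.16 ± 0.385 TPM (SD, n = 3 each) could not be put in order, as neighbouring ranges overlapped. These levels span the 34.8th to the 85.9th percentile of wild-type TPM among tested genes. In the knockout, Ppp2r2c at 36.7 ± 4.31 and Ankrd63 at 31.8 ± 2.58 TPM (SD, n = 3 each) overlapped at the top. Sgpp2, Lgi2 and Kcnmb3 came next at 21.6 ± 2.91, 12.2 ± 0.891 and 7.23 ± 0.912 TPM (SD, n = 3 each), and neighbouring ranges among the other 4 genes overlapped. The 5 genes with the lowest wild-type TPM were the 5 with log2 fold changes of -0.66 and below. A call asks for a larger difference in a gene with fewer reads, and the part of that threshold in this arrangement was not tested.

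In each of Sphkap, Fam19a1, Lgi2 and Wscd2, whose reads were divided among transcripts, the main coding transcript was lower in every knockout than in every wild type. These transcripts hold most of the TPM of genes selected for lower sums, so nothing is read from this. Sphkap has 5 annotated transcripts. Of its summed TPM, Sphkap-202 took 58.1% ± 5.62 in the wild type and 56.9% ± 2.75 in the knockout, and the longer Sphkap-205 took 30.2% ± 5.402 and 29.5% ± 0.826 (SD, n = 3 each). Sphkap-202 had 3.27, 3.27 and 2.71 TPM in the wild types and 1.68, 1.70 and 1.94 TPM in the knockouts. For the retained-intron transcript Sphkap-201 the groups overlapped, at 0.481 to 0.726 against 0.32 to 0.523 TPM. Both coding transcripts were lower in every knockout than in every wild type.

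Fam19a1 was assigned mainly to Fam19a1-202, with 80.9% ± 3.09 of its TPM in the wild type and 82.3% ± 5.39 in the knockout (SD, n = 3 each). The second coding transcript, Fam19a1-201, had 137, 137 and 139 estimated reads in the wild types and 78.0, 78.3 and 49.7 in the knockouts. Both were lower in each knockout than in each wild type. Lgi2-202 held 97.4% ± 1.23 of Lgi2 TPM in the wild type and 97.6% ± 1.14 in the knockout (SD, n = 3 each).

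Wscd2 was the gene whose estimates varied most between transcripts. The coding Wscd2-201 had 3.59, 4.14 and 3.92 TPM in the wild types and 2.07, 2.21 and 2.87 TPM in the knockouts. The noncoding Wscd2-204 had 145, 174 and 166 estimated reads in the wild types and 82.7, 52.9 and 0 in the knockouts. Its share of Wscd2 TPM was 25.1% ± 2.47 in the wild type and 13.98% ± 13.03 in the knockout (SD, n = 3 each), so the knockouts spread more widely than the distance between the means. Knockout 3, with 0 reads for Wscd2-204, was the highest knockout for Wscd2-201. Reads that fit both transcripts were divided by estimation, and read positions were not analysed here. Kcnmb3, Ankrd63 and Sgpp2 have 1 annotated transcript each, and Zfp365 and Ppp2r2c were assigned almost wholly to 1.

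**Figure D2:**
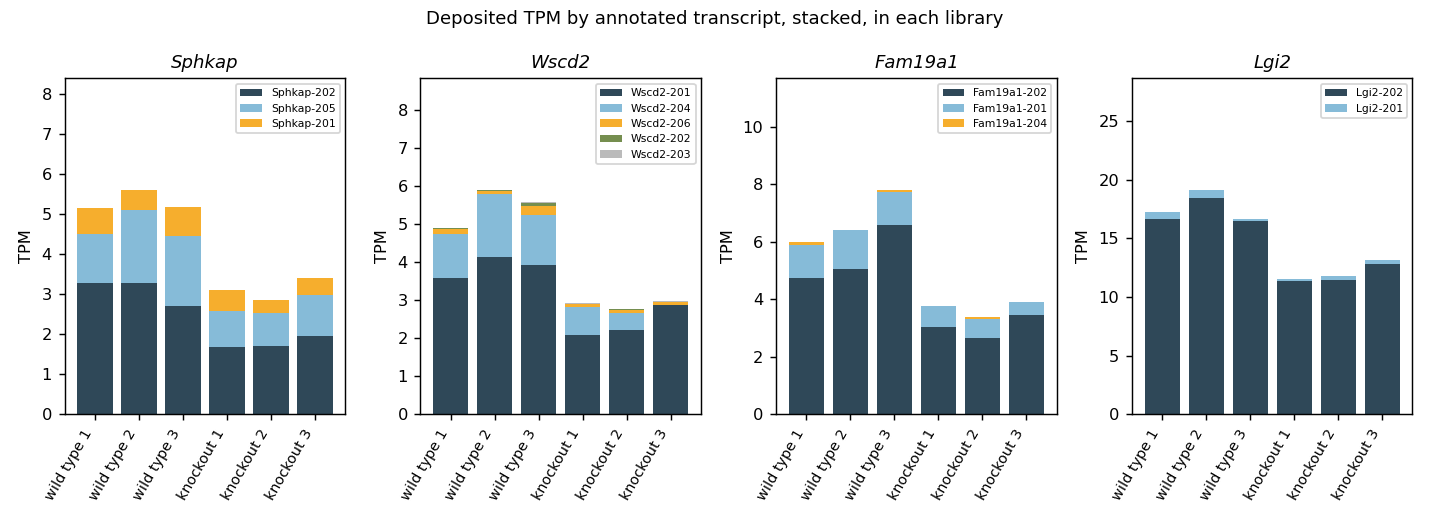
Deposited TPM of annotated transcripts, stacked, in each library for the 4 genes with more than 1 transcript holding reads in the wild type (transcripts with no reads in any library are left out). The total bars of the 3 knockouts are lower than those of the 3 wild types in each panel, and the light blue part of Wscd2, Wscd2-204, is absent in knockout 3.

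Sex was not used in the selection and was tested in all 6 libraries. None of the 9 genes was called for sex in a fit with genotype and sex (edgeR adjusted p from 0.882 to 0.994), and 0 of 9 had an unadjusted p under 0.05. DESeq2 likewise called 0. The log2 differences, female against male, lay between -0.10 for Fam19a1 (SE 0.09) and 0.07 for Sgpp2 (SE 0.05). Of all tested genes, 0.042% were called for sex. None of the 9 was called for a genotype difference that depended on sex (edgeR adjusted p from 0.960 to 0.993, with 0 at an unadjusted p under 0.05 and 0 by DESeq2), against 0.024% of tested genes. The interaction terms ran from -0.13 for Lgi2 (SE 0.18) to 0.18 for Kcnmb3 (SE 0.17) on the log2 scale. Without knockout 3, which stood apart in main olfactory markers, 0 of 9 were called for sex, and the interaction could not be fitted. With 1 female per genotype, a dependence on sex of about that size was not detectable.

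Genes of the same families and pathways were examined next, to show whether the 9 genes were lower together with their partners. The lists hold 112 relatives, none of them among the 9, and 107 were tested. The test called 2 of 107 lower and 0 higher. Of all tested genes 0.683% were called lower, many of them receptors. Among genes without a vomeronasal receptor name, Cnpy1 left out, the share was 0.312%. An unadjusted p under 0.05 was found for 16 of 107 relatives and for 10.5% of all tested genes. DESeq2 called 5 relatives, and it called 2.45% of the genes it tested, 1.9% lower. The median log2 fold change of the relatives was 0.00, with 54 of 107 below 0, near the median over all tested genes. Both called relatives belong to the families of Kcnmb3 and Ppp2r2c.

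**Figure D3:**
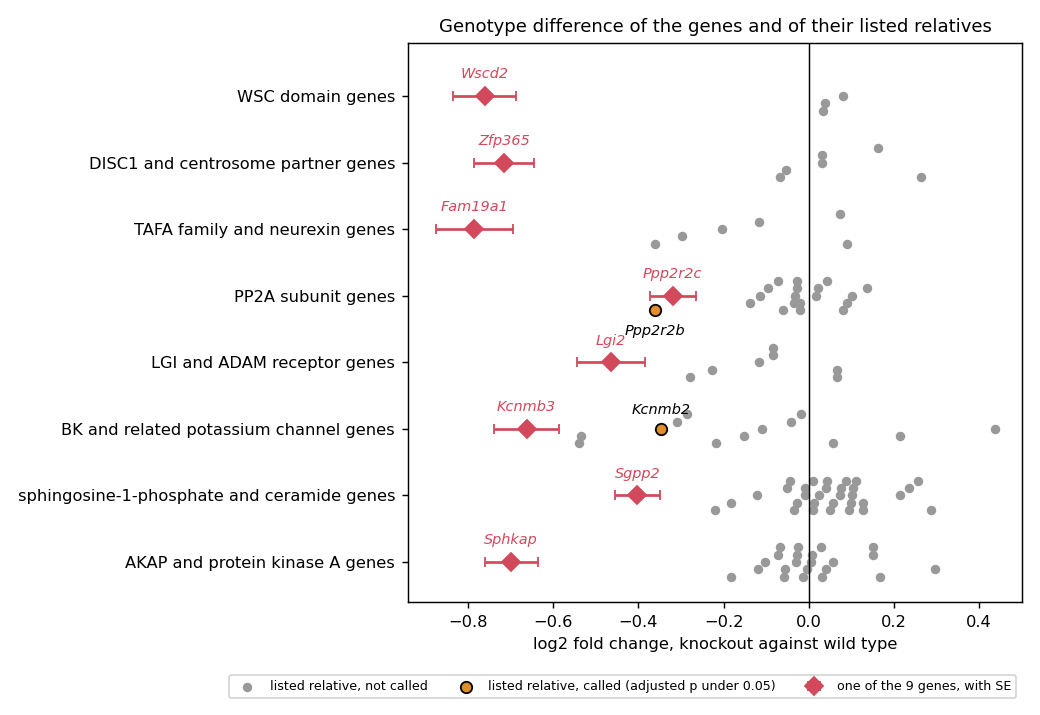
Log2 fold changes, knockout against wild type, of the tested relatives in 8 lists (grey points), of the 2 called relatives (orange) and of the listed gene each family was chosen for (red diamonds with SE, each a selected gene). Most relatives lie around 0, and some that were not called, such as Kcnt1 at -0.54, Lrrc55 at -0.53 and Kcnn4 at 0.44, lie as far out as Kcnmb2 and Ppp2r2b or farther. Ankrd63 has no list.

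Of 13 tested genes of BK and related potassium channels, 1 was called lower and 0 higher, beside 0.683% of all tested genes called lower. An unadjusted p under 0.05 was found for 2, beside 10.5% of all tested genes. The median log2 fold change was -0.15, with 10 of 13 below 0. The called gene was Kcnmb2, which encodes the beta 2 subunit, known for inactivating BK currents. It had 65.5, 69.5 and 68.4 CPM in the wild types and 51.2, 52.3 and 56.5 CPM in the knockouts, without overlap. The log2 difference was -0.35 ± 0.06 (SE), with an edgeR adjusted p of 0.036. The call was lost without any one of wild types 1, 2 and 3 and knockouts 1 and 2, without TMM factors, in males only and with a transcript length offset, with adjusted p-values up to 0.219 over the alternatives. Kcnma1, the pore-forming subunit that both beta subunits bind, had 15.6 ± 0.475 TPM (SD, n = 3) in the wild type and a log2 fold change of -0.02 (SE 0.08). Lrrc26, the gamma subunit that shifts BK gating in glands, had 0.22 (SE 0.15), and neither was called (edgeR adjusted p = 0.966 and 0.701). Kcnmb2 and Kcnmb3 both lie on chromosome 3, 271 kb apart, with 2 other tested genes between their lower coordinates. DESeq2 called Kcnmb2 and also the small-conductance channel gene Kcnn3 lower.

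Of 19 tested genes of PP2A subunits, 1 was called lower and 0 higher, and 4 had an unadjusted p under 0.05, beside the same shares of all genes. The median log2 fold change was -0.03, with 12 of 19 below 0. Ppp2r2b, the B55 beta subunit and a close relative of Ppp2r2c, had 81.8, 81.5 and 77.4 CPM in the wild types and 65.7, 61.6 and 60.2 CPM in the knockouts. The groups did not overlap, the log2 difference was -0.36 ± 0.05 (SE) and the edgeR adjusted p 0.0276. This call was lost without any one of wild types 1 and 2 and knockouts 1, 2 and 3, with sex as a term, in males only and with a length offset, with adjusted p-values up to 0.244. The catalytic subunit gene Ppp2cb, at 183 ± 13.2 TPM (SD, n = 3), the scaffold gene Ppp2r1a and the activator gene Ptpa had log2 fold changes of -0.07, -0.03 and -0.02 (SE 0.05, 0.05 and 0.06), and none was called.

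In the other 6 families no gene was called by edgeR. The 22 tested anchoring protein and protein kinase A genes had a median log2 fold change of -0.01, and 2 had an unadjusted p under 0.05. Prkar1a, the type I regulatory subunit of the kind that Sphkap anchors, had -0.02 (SE 0.05), the catalytic subunit gene Prkaca -0.10 (SE 0.05) and the junction protein gene Vapa -0.03 (SE 0.06). Of 32 sphingosine-1-phosphate and ceramide genes, 31 were tested, with a median of 0.05 and 4 at an unadjusted p under 0.05. Sgpl1, the lyase that degrades the substrate of Sgpp2, had 0.06 (SE 0.06), the ceramidase gene Asah1 0.05 (SE 0.06) and the ceramide synthase gene Cers5 -0.12 (SE 0.05). DESeq2 called 0 in both lists.

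The 7 genes of the LGI family and its ADAM receptors had a median of -0.08, with 2 at an unadjusted p under 0.05 and 0 called by DESeq2. Adam23, a receptor of LGI proteins, had -0.23 (SE 0.09, edgeR adjusted p = 0.408), Lgi4 -0.08 (SE 0.10) and the synaptic scaffold gene Dlg4 -0.12 (SE 0.06). Of 8 TAFA family and neurexin genes, 6 were tested, with a median of -0.16 and 1 at an unadjusted p under 0.05. That gene, the presynaptic receptor gene Nrxn2, had a log2 difference of -0.30 ± 0.07 (SE; edgeR adjusted p = 0.135) and was called lower by DESeq2. Fam19a5, the most abundant other TAFA gene, had 0.07 (SE 0.09).

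The 6 genes of DISC1 and its centrosome partners had a median of 0.03, with 1 at an unadjusted p under 0.05, and DESeq2 called that gene, Nde1, higher. Ndel1, Pafah1b1 and Pcm1 had log2 fold changes of -0.07, -0.05 and 0.03 (SE 0.06, 0.05 and 0.06). The 3 genes with a WSC domain besides Wscd2 had a median of 0.04, with 0 at an unadjusted p under 0.05 and 0 by DESeq2. Its paralog Wscd1 had 0.04 (SE 0.17) at 1.43 ± 0.268 TPM (SD, n = 3) in the wild type, and Kremen1 and Kremen2, receptors of Wnt inhibitors, had 0.08 (SE 0.06) and 0.03 (SE 0.32).

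The 9 genes lie on 6 chromosomes, 3 of them on chromosome 5, which also carries Cnpy1. Measured between the lower coordinates of the genes, Ppp2r2c, Lgi2 and Wscd2 lie 8.67, 24.3 and 85.3 Mb from Cnpy1. A gene-targeted chromosome can keep sequence of its strain of origin around the target, and this was not tested. Within 10 Mb of Cnpy1, 178 genes without a vomeronasal receptor name were tested, Cnpy1 left out. Ppp2r2c was the only one called, and the median log2 fold change was -0.01. On chromosome 5 as a whole 5 of 990 such genes were called lower (0.505%), against 51 of 16347 over all chromosomes (0.312%), with 3 of the 5 being selected genes.

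The nearest tested genes on both sides of each of the 9 were examined to show whether the differences extended along the chromosome. None of these 18 neighbours was called by edgeR, 1 had an unadjusted p under 0.05, and DESeq2 called 0. Their median log2 fold change was -0.02, with 11 of 18 below 0. Plcb2, a phospholipase C gene 3.55 kb beyond the start of Ankrd63, had 10.3, 8.85 and 9.71 CPM in the wild types and 8.46, 7.23 and 6.96 CPM in the knockouts. This log2 difference was -0.35 ± 0.11 (SE) and had an edgeR adjusted p of 0.276. Pak6, 1.08 kb beyond the other end of Ankrd63, had -0.03 (SE 0.07). Fam19a1 and Kcnmb3 were flanked by genes between -0.03 and 0.04.

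In a wider window of 500 kb to each side, between lower coordinates and chosen after the values were seen, 78 genes were tested and 1 was called by edgeR. DESeq2 called 4, upper-quartile factors gave 2, a fit with no filter on low counts gave 1, and the other alternative fits gave 0. Over all tested genes, edgeR called 0.761% and DESeq2 2.45% in either direction. The called gene was Inafm2, a small membrane protein gene 41.8 kb from Ankrd63, with 332, 327 and 336 CPM in the wild types and 278, 258 and 256 CPM in the knockouts. The log2 difference was -0.33 ± 0.06 (SE) and the edgeR adjusted p 0.0451, and 3 of 14 alternative fits called it, with adjusted p-values up to 0.305. It was not called without any one of the 6 libraries. Fam19a1 had no other tested gene in its window. Kcnmb2, called and 271 kb from Kcnmb3 between the ends of the genes, falls outside the window because their lower coordinates are 569 kb apart.

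**Figure D4:**
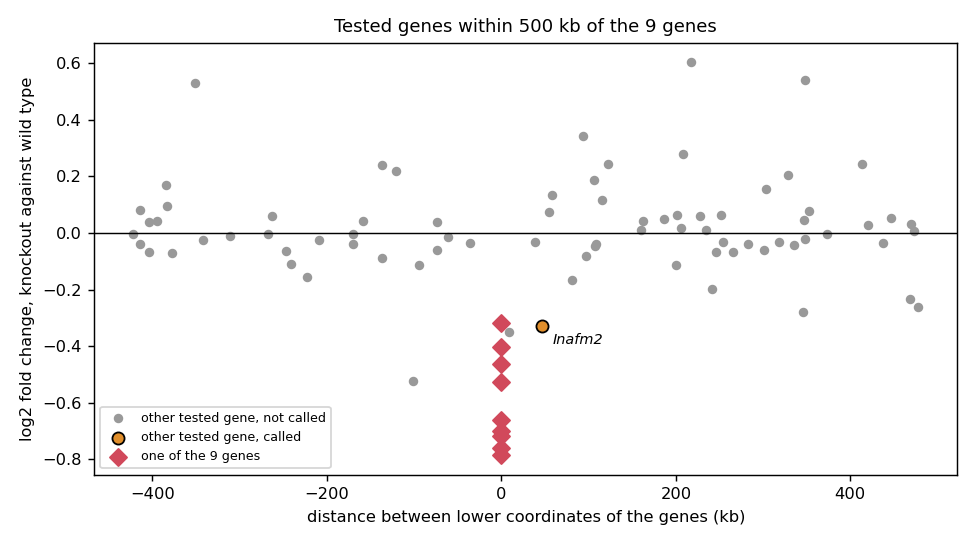
Log2 fold change, knockout against wild type, of tested genes by the distance of their lower coordinate from that of one of the 9 genes, in kb, positive towards higher coordinates. The 9 selected genes are red diamonds at distance 0, between -0.79 and -0.32, the 1 called other gene, Inafm2, is orange, and the genes that were not called are grey and scatter around 0.

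Markers of cell types were read in the same libraries. All listed markers of vomeronasal neurons, the defining cells of the labelled tissue, were detected in these libraries. The 5 markers of basal neurons were all below 0, with a median log2 fold change of -0.41, and 2 were called lower by edgeR and 3 by DESeq2, beside 0.683% and 1.9% of all genes called lower. Gnao1, the basal G protein subunit, fell from 310.3 ± 8.48 to 234 ± 8.09 CPM (SD, n = 3 each; edgeR adjusted p = 0.0143, log2 difference -0.41, SE 0.05). Vmn2r1, a receptor of the family C that basal neurons co-express, had -0.72 (edgeR adjusted p = 0.000612). The summed basal markers ran from 691 to 696 CPM in the wild types and from 499 to 532 CPM in the knockouts, so their mean was 74.6% of the wild type. Robo2, Tfap2e and Vmn2r2 were not called by edgeR, at -0.21, -0.26 and -0.44.

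Sums of mature neuron markers ran from 1637 to 1867 CPM in the wild types and from 1426 to 1521 CPM in the knockouts, and pan-neuronal sums from 1073 to 1099 and from 930.4 to 987 CPM. In neither list did the sums overlap between genotypes, and Omp made up 1147 of the 1756 CPM of the mature wild-type mean. The median log2 fold changes were -0.15 and -0.21, with 5 of 6 and 4 of 5 genes below 0. Ano1, Stoml3, Cnga4 and Stmn2 had 0.05, -0.04, -0.04 and 0.04, with overlapping groups. In these lists edgeR called 0 of 6 and 0 of 5 genes, with 3 and 4 at an unadjusted p under 0.05 (10.5% of all tested genes). DESeq2 called 3 lower in the first, Omp, Trpc2 and Ano2, and 2 in the second, Snap25 and Syt1 (1.9% of the genes it tested). Apical marker sums ran from 1089 to 1150.5 CPM in the wild types and from 1198 to 1263 CPM in the knockouts. Gnai2 made up 644 of the 1111 CPM of the wild-type mean. Gnai2 and Meis2 had log2 fold changes of 0.17 and 0.14 without overlap of the groups. Nrp2 and Pde4a, at 0.09 and -0.07, overlapped between genotypes. Of the 4 genes, 0 were called by either tool and 1 had an unadjusted p under 0.05. Progenitor and immature neuron markers had a median of 0.45 and overlapping sums, of 100.5 to 119.7 and 116 to 137 CPM. Of these 6, edgeR called the replication gene Top2a higher (0.40, edgeR adjusted p = 0.0421), where it called 13 of 16679 tested genes higher. DESeq2 called Mki67 as well, where it called 2.45% of genes in either direction.

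Of the 8 lists for other cells, 0 of 29 genes were called by either tool, with 3 at an unadjusted p under 0.05 (10.5% of all tested genes). Ciliated cell sums were higher in each knockout, at 187 to 208 CPM against 165 to 185 CPM, though the groups overlapped for each of the 3 genes. The sums of main olfactory neurons, supporting cells, glia, vascular cells, smooth muscle, immune cells and glands overlapped between genotypes, with knockout 3 the lowest library for main olfactory and supporting cells, and no listed marker was at 0 reads. The summed gland genes, the odorant-binding and lipocalin genes, varied most, from 107159 to 159543 CPM in the wild types and from 115050 to 189664 CPM in the knockouts. The part that these differences in markers have in the levels of the 9 genes was not tested, and the libraries do not show which cells express the 9.

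Because Gnao1 was lower, each of the 9 genes was also divided by Gnao1 in the same library, a description chosen after the values were seen. On this scale 5 genes were lower in every knockout, and the share of all tested genes on this scale was not computed. They are the 5 selected with the lowest log2 fold changes, -0.66 and below, where Gnao1 had -0.41. The ratio to Gnao1 in the knockout was 77.2% of that in the wild type for Fam19a1, 78.4% for Wscd2, 80.9% for Zfp365, 81.8% for Sphkap and 83.8% for Kcnmb3. For Ankrd63 (92.1%), Lgi2 (96.2%) and Sgpp2 (100.4%) the groups overlapped. Ppp2r2c was higher relative to Gnao1 in every knockout, at 0.484, 0.496 and 0.492 against 0.461, 0.457 and 0.465 in the wild types. These ratios only set the fold change of each selected gene against that of Gnao1 and carry no test.

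**Figure D5:**
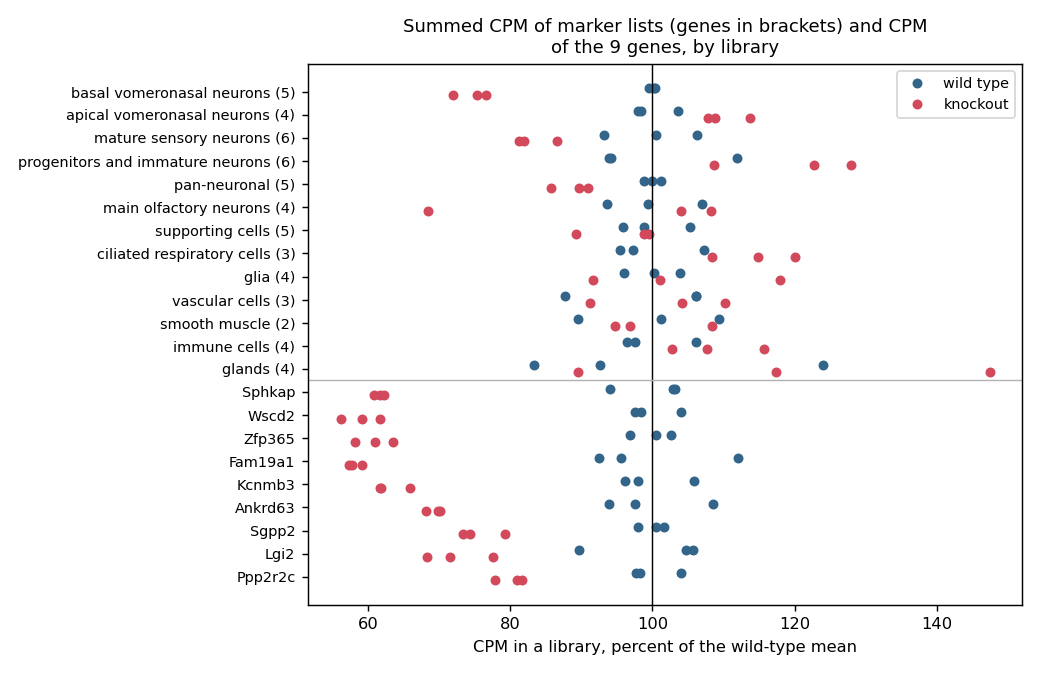
Summed CPM of each marker list (number of genes in brackets) and CPM of the 9 selected genes in each library, as a percent of the wild-type mean, which is the vertical line at 100. Wild type is blue and knockout red. Red points lie left of the blue points for the basal, mature and pan-neuronal lists and for all 9 genes, right of them for the apical and ciliated lists, and among them for the others.

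Over the 6 libraries, the genes whose log2 CPM followed the mean standardised level of the 9 genes most closely were Vmn2r54, Vmn2r63, Vmn2r11 and Vmn2r110, all V2R receptors, and Agpat5, an acyltransferase gene of phospholipid synthesis. Their Pearson r was 0.9997, 0.9985, 0.9977, 0.9971 and 0.9959 among 14755 candidates with at least 1 CPM on average, and 22 genes had r over 0.99. The 6 points fall into 2 groups set by genotype, so r mostly restates a difference between the groups, and no p is given. Vmn2r54 had 31.1, 25.3 and 27.3 CPM in the wild types and 3.41, 3.61 and 3.56 CPM in the knockouts. Agpat5 had 86.2, 85.1 and 86.5 CPM in the wild types and 67.7, 70.2 and 69.5 CPM in the knockouts. The receptors thus had larger differences than the 9 genes, while Agpat5, with a log2 fold change of -0.31, was close to Ppp2r2c.

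The 9 genes come from a list, and 43 other genes without a receptor name were called lower in the same fit, so the edgeR threshold alone does not set the 9 apart. Lgi2 lay nearest to that threshold among the 9, with an adjusted p of 0.0463 in edgeR, and Eps8l1, an actin regulator gene that is not among the 9, was the last non-receptor gene inside at 0.0496. B3gnt8, a glycosyltransferase gene, was the first outside at 0.051. Its wild-type level was 40.6 ± 1.09 and its knockout level 31.9 ± 1.98 CPM (SD, n = 3 each), and its log2 fold change of -0.35 was larger in size than that of Ppp2r2c. Of the 9 genes, Sphkap, Wscd2, Zfp365, Fam19a1 and Kcnmb3 were called in all 14 alternative fits, Ankrd63 in 11, Sgpp2 in 9, Lgi2 in 6 and Ppp2r2c in 3.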

How the data were processed

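The 9 genes, the gene lists and the tests were chosen with earlier results of these data known. For each library the authors deposited estimated counts and TPM values of 117081 transcripts, per the file headers. The submitters' processing notes name Trim Galore 0.6.6, Salmon 1.9.0, DESeq2 and the builds mm10 and GRCm38. Such a program divides reads that fit several transcripts by estimation, so counts of overlapping transcripts are less certain than gene sums.

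Transcripts were joined to GENCODE M21 (GRCm38). Of these, 115942 matched, and the 1139 others, with 0.304% of reads, were left out. Because the test had been planned for whole counts, gene sums were rounded, and they were tested in edgeR 4.0.16 (R 4.3.3) by the quasi-likelihood F test with TMM scaling, filterByExpr and genotype as the only term, on 16679 genes. Sex and its interaction with genotype were tested in fits with those terms. SE is the size of a log2 fold change divided by the square root of F. The common biological coefficient of variation was 12.8%. Mice are the replicates, 1 library each, and sex and group come from the labels. The script was tested on simulated data. DESeq2 1.42.0, other scalings, filters and subsets were alternatives. Uniqueness is the percent of a gene's 31-base words on either strand found in no other gene. Python 3.11.15 was used with pandas 2.3.3 and numpy 2.4.6.

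The genes named are the 9, the called genes and the 3 with the highest wild-type TPM in each list of relatives, called neighbours, the 5 genes most like the 9 and the non-receptor genes on each side of the threshold. All listed cell type markers could also be named. Plcb2, Farsb, Pak6, Kcnn3, Nde1, Inafm2, Kcnt1, Lrrc55 and Kcnn4 were named after their values were seen. One gene that the rule names is not reported here.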

Additional observations from a re-analysis of the deposited data

How the results depend on the processing

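All 9 genes kept a negative log2 fold change under each alternative run, and none was reversed. The number of the 9 called lower was 5 in males only and 5 to 8 when one library was left out (5 without knockout 1 or knockout 2, 6 without wild type 2), and 7 to 9 under the other fits. Their median log2 fold change, -0.66, was -0.69 without TMM factors, -0.72 and -0.62 as ratios of TPM with pseudocounts of 0.1 and 1, and -0.69 to -0.62 when one library was left out. Called relatives numbered 5 by DESeq2, 1 without TMM factors, 1 with sex as a term, 0 in males only, 0 with a transcript length offset, and 0 to 1 when one library was left out, in place of 2. Neighbours called, and genes among the 9 called for sex or its interaction with genotype, remained 0 in the fits run. Over all genes, 127 were called, against 409 by DESeq2, 76 in males only and 69 to 96 when one library was left out. With the replicate number as a block, all 9 were called and 154 genes in all. Deviations from the group means of same-numbered mice had Pearson r of 0.155, -0.0942 and 0.23 across genes. Wild types 1 and 2 did not correlate best with their own numbers, and wild type 3 did. Deviations from a mean of 3 mice depend on each other, so these values do not settle whether the numbers pair the mice. The causes of these differences were not tested. Fits in males and fits without a library also had fewer samples. Depth, at 497 reads and more for each of the 9, limits the minor transcripts most.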
